A study of Pleurotus ostreatus with 4 samples.

Results

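The mature fruit body of the oyster mushroom Pleurotus ostreatus was compared with the primordium from which it grows, and the net change was split at the young fruit body that lies between them. Total RNA of wild-type strain P739 had been sequenced as 1 library at each of 4 developmental stages, of which vegetative mycelium was the earliest. The comparison used 2 of these libraries, the young one divided the change into its parts, and the mycelial one was set beside them. The members were the sequences of the assembly with at least 5 FPKM (fragment numbers scaled to sequence length and to the library's total) in primordium or mature fruit body, 7119 of the 51131 listed. The call of a sequence as higher or lower required a difference of at least 1 in log2(FPKM + 1), mature fruit body minus primordium. The labels give neither the days between the stages, nor the part of the mushroom taken, nor whether several mushrooms were pooled.

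In mushroom-forming basidiomycetes, the vegetative mycelium gathers into compact knots that become primordia, in which the tissues of cap, stem and gills are laid down. Growth from primordium to mushroom then proceeds largely by expansion of cells already formed, and in the mature cap the basidia on the gills pass through meiosis and shed spores. Gene families known to follow this course in mushroom-forming fungi include hydrophobins, cell wall enzymes, lectins and meiotic genes.

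None of these families could be followed by name. The identifiers were numbered contigs within clusters or single unigenes, the file paired none of them with a gene, and 0 of them matched the 11849 genes of a RefSeq table for strain PC9. The stage labels could not be checked against marker genes for the same reason. The libraries were of similar depth, with FPKM denominators of 15048631 fragments for primordium, 15400578 for young and 15691317 for mature fruit body, recovered from the steps of the FPKM values. With 1 library per stage, no difference could be set against the spread between replicates, and no p-value is given. Intervals in the text are 95% intervals from recovered fragment numbers and cover counting error only.

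Over the growth from primordium to mature mushroom, most sequences stayed near their level. Of the 7119 sequences compared, 597 (8.39%) were higher and 291 (4.09%) were lower in mature fruit body, 12.5% in all, while 76.4% lay within 1.5-fold of equality on the log2(FPKM + 1) scale. The median difference over all sequences compared was 0.00. The median level of the higher sequences was 3.02 FPKM in primordium, 6.08 in young and 14.9 in mature fruit body. For the lower sequences these medians were 16.8, 10.6 and 4.71 FPKM. In RNA from whole tissue, fewer cells of a type and less RNA per cell cannot be told apart.

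The excess of higher sequences was larger among the larger differences. At a log2 difference of at least 2, a 4-fold change, 244 sequences were higher and 77 lower, so that 76.0% of the calls were higher, against 67.2% at a difference of at least 1. At a difference of at least 3 there were 111 higher and 28 lower (79.9% higher), and at least 4 separated 33 higher and 12 lower (73.3%). In the highest range, from a difference of 6 upward, 5 were higher and 4 lower (55.6% higher), few sequences in all. The threshold ran through a dense part of the distribution: 65 higher sequences lay between 1 and 1.1 and 73 uncalled ones between 0.9 and 1, with 40 and 51 on the lower side. The nearest values on either side were 1.001 and 0.99997 for higher and 1.001 and 0.998 for lower. Folds with a counting interval entirely past 2 belonged to 499 of the higher and 228 of the lower sequences (83.6% and 78.4% of the calls), 7.01% and 3.2% of all sequences compared. The numbers moved by more than 1.5 times with another threshold, another FPKM minimum or a pseudocount of 5, and upper-quartile scaling shifted the median difference of all sequences by -0.12 and gave 516 higher and 356 lower.

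**Figure D1:**
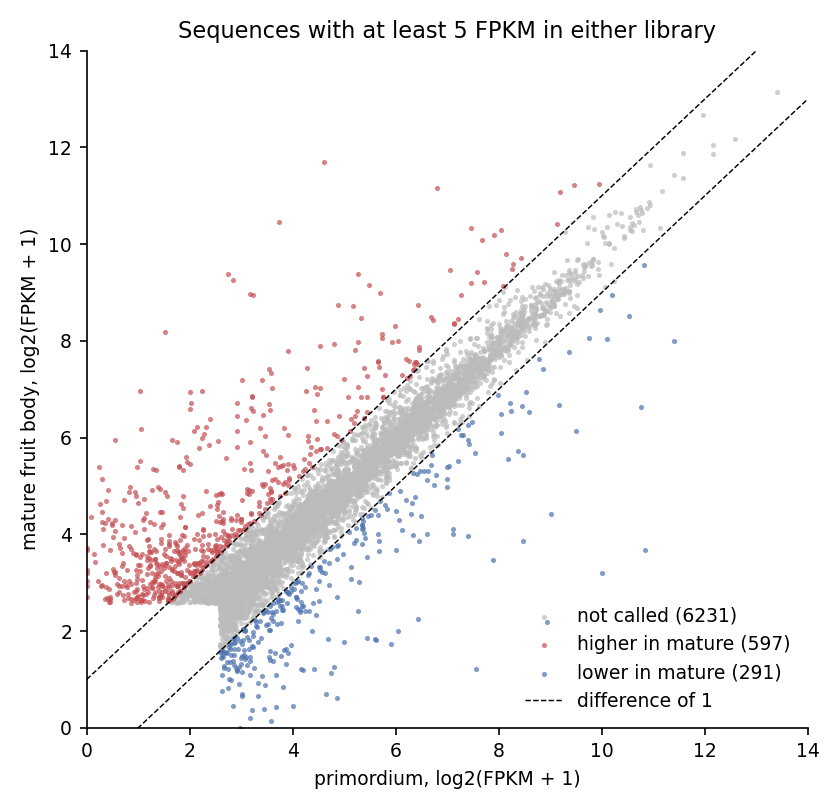
Level of each of the 7119 sequences in primordium (horizontal axis) and mature fruit body (vertical axis), both as log2(FPKM + 1), 1 library per stage. Dashed lines mark a difference of 1, and the 597 higher sequences lie above them and the 291 lower ones below.

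Among the higher sequences, 96 had under 1 FPKM in primordium, 25 had at most 3 fragments there and 7 had none, which allows up to 3 fragments. None of the 96 reached 100 FPKM in mature fruit body, where their median was 8.58 FPKM. Of the lower sequences, 20 had under 1 FPKM in mature fruit body, 4 had at most 3 fragments and 1 had none, and the 20 had a median of 8.61 FPKM in primordium. At the upper end, 93 higher sequences reached at least 100 FPKM in mature fruit body, and 51 lower ones had at least 100 FPKM in primordium. The lower group also held abundant sequences, with up to 2706 FPKM in primordium against up to 3319 FPKM in mature fruit body for the higher group.

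The sequences of the largest net difference changed in both parts of growth. Unigene7400 (1025 nt) had 3.45 FPKM in mycelium, 23.4 in primordium, 145 in young and 3319 in mature fruit body. It was thus the most abundant of the higher sequences at maturity, with a net ratio of 142-fold (interval 128 to 158) made of 6.18-fold by the young stage and 22.9-fold afterwards. CL3980.Contig3 (3668 nt) had 2.07, 12.3, 58.7 and 1404 FPKM in the same order, a net 114-fold (106 to 124). Its first part was 4.79-fold and its second 23.9-fold, so both of these sequences gained more after the young stage than before it. On the log2(FPKM + 1) scale the young stage had reached 36.4% and 32.3% of their net differences of 7.09 and 6.73.

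The largest decreases were of similar size and more evenly divided. CL3068.Contig1 (528 nt) had 33.3 FPKM in mycelium, 1820.5 in primordium, 188 in young and 11.8 in mature fruit body. It was 154-fold lower at maturity (126 to 190), 9.66-fold by the young stage and a further 15.9-fold afterwards, and 45.7% of its log2 difference of -7.15 had been reached at the young stage. Unigene1434 (660 nt) had 18.3, 1020.4, 153 and 8.21 FPKM, a net 124-fold lower (100 to 156). Its parts were 6.65-fold and 18.7-fold, and its share reached was 40.1% of a difference of -6.79. In both, the primordium held the highest level of the 4 libraries and the mature level was below that of mycelium. The other compared contig of the cluster of CL3068.Contig1 (917 nt) was also lower, but was highest in mycelium. It had 10.2, 7.10, 1.56 and 0.63 FPKM in order of stage and a share of 0.72.

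The net log2 difference of a sequence is the sum of its difference from primordium to young and its difference from young to mature fruit body, and the share reached by the young stage was taken as the first divided by the sum. Because the parts share the young library, and each shares a library with the net difference, they are given side by side and not correlated. A path was named mostly by the young stage at a share of at least 0.75, mostly afterwards at a share of at most 0.25, and in both parts between these. For reference, the first part alone gave 193 higher and 108 lower sequences among 6820 compared (2.83% and 1.58%, 4.41% in all). The second part alone gave 368 and 144 among 7055 (5.22% and 2.04%, 7.26% in all).

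On the log2 scale, more of the net change was made after the young stage than before it, in either direction. The higher sequences had a median difference of 0.61 by the young stage and 1.07 afterwards, with a median net of 1.77 and a median share of 0.33 (quartiles 0.14 and 0.59). The lower sequences had medians of -0.66 and -0.89, a net of -1.51 and a median share of 0.42 (0.27 and 0.60). Over all sequences compared the medians of the parts were 0.03 and -0.02. Of the 597 higher sequences, 87 (14.6%) made their change mostly by the young stage, 266 (44.6%) in both parts and 244 (40.9%) mostly afterwards. Of the 291 lower sequences, 46 (15.8%), 179 (61.5%) and 66 (22.7%) did so. The path mostly afterwards thus held 40.9% of the higher and 22.7% of the lower sequences, a difference between the directions that was not tested. Its size depended on the pseudocount. With a pseudocount of 0.1 this path held 237 of 659 higher and 89 of 334 lower sequences, and the median shares were 0.36 and 0.40. With a pseudocount of 5 it held 187 of 382 and 31 of 159, and the median shares were 0.26 and 0.44.

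**Figure D2:**
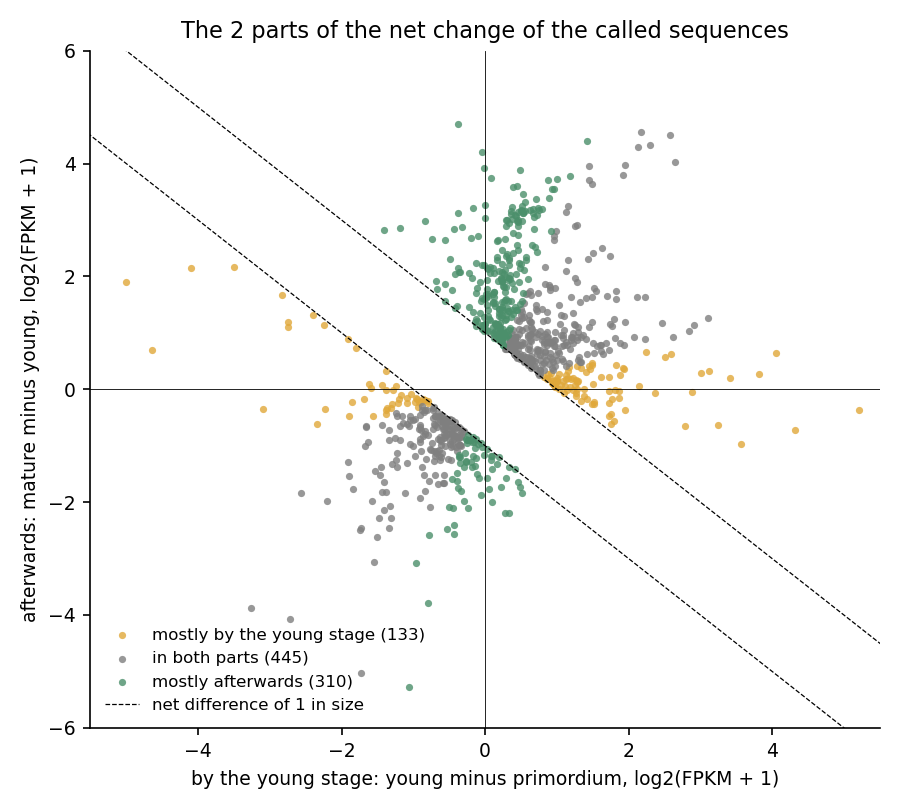
The difference from primordium to young fruit body (horizontal axis) and from young to mature fruit body (vertical axis) for the 597 higher and 291 lower sequences, both as differences of log2(FPKM + 1), coloured by path. Points beyond the dashed lines have a net difference of at least 1 in size; 244 higher and 66 lower sequences fall in the path mostly afterwards.

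Neither part alone was called in 171 higher and 122 lower sequences. Of these, 137 higher and 100 lower ones were on the path in both parts, and the others on a path with most of the change in 1 part. A part was also left uncalled where both of its libraries were under 5 FPKM. Where both parts were under 1 in size, the net difference was necessarily under 2. The 171 higher sequences had medians of 4.38 FPKM in primordium, 6.89 in young and 11.5 in mature fruit body, against 12.5, 8.26 and 5.05 FPKM for the 122 lower ones. A call in both parts in the same direction was found for 43 higher and 23 lower sequences. The counting intervals of both parts excluded equality in the direction of the net change for 345 higher and 202 lower sequences. A share over 1, with the young level beyond the final one, was found for 29 higher and 16 lower sequences, and the counting interval of the return excluded equality for 13 and 10 of them. A share under 0, with a first part opposite to the net change, was found for 50 higher and 19 lower sequences, with such an interval for 17 and 9. Called in the opposite direction in 1 of the parts were 1 higher and 5 lower sequences.

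The levels on the 3 paths are given as a description, since the young level enters the share that defines the paths. Among the higher sequences, those mostly by the young stage had medians of 4.35 FPKM in primordium, 15.6 in young and 14.9 in mature fruit body. Those in both parts had 3.88, 7.92 and 17.9 FPKM. Those mostly afterwards were the least abundant in young fruit body, with 2.16, 2.56 and 12.7 FPKM, and had the largest median net difference, 1.98 against 1.39 and 1.74. Among the lower sequences, those mostly by the young stage had medians of 12.8, 4.64 and 4.36 FPKM, those in both parts 16.8, 10.1 and 4.34 FPKM, and those mostly afterwards 20.9, 17.6 and 5.91 FPKM. Their median net differences were -1.35, -1.55 and -1.50.

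Among sequences whose change was mostly complete at the young stage, the largest differences rested partly on few fragments. CL6317.Contig1 (289 nt) was without a fragment in mycelium (a count of 0 allows up to 3) and had 0.230 FPKM in primordium from 1 fragment, 44.5 in young from 198 and 34.4 in mature fruit body from 156. It was 150-fold higher at maturity than in primordium (26.5 to 5950), after a 193-fold higher young value (34.3 to 7680) and a 1.29-fold decrease (1.04 to 1.61). Its level was thus high in both fruit bodies and rested on at most 1 fragment in each earlier stage. Unigene6760 (538 nt) had 2012 FPKM in mycelium, 3.09 in primordium, 66.7 in young and 105 in mature fruit body. It was a net 34.0-fold higher (22.8 to 52.8), by 21.6-fold and then 1.57-fold, with 86.3% of a log2 difference of 4.69 reached at the young stage. Its mature level nevertheless remained far below that of mycelium.

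The named decreases on this path ended at very low levels, whereas the median of all 46 was 4.36 FPKM in mature fruit body. Unigene10085 (310 nt) had 0.208 FPKM in mycelium and 24.01 in primordium from 112 fragments, 0 fragments in young and 0.617 FPKM from 3 fragments in mature fruit body. It was 38.9-fold lower at maturity (13.0 to 192). At the young stage it was 38.2-fold lower with 3 fragments put in place of the 0 in that library, a value without a counting interval. CL4113.Contig2 (640 nt) had 0.1005, 11.01, 0.406 and 0.0996 FPKM in order of stage, the last from 1 fragment. It was a net 111-fold lower (19.4 to 4410) and 27.1-fold lower by the young stage (10.3 to 101), and 89.7% of its difference of -3.45 had been reached there. Both sequences were near 0 in every library but primordium.

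Sequences of the path mostly afterwards changed little up to the young stage in relation to what followed. The median differences of the 2 parts were 0.24 and 1.91 for higher and -0.17 and -1.37 for lower sequences. The first part alone was called in only 3 of the 244 higher and 1 of the 66 lower sequences. Both higher sequences named here were among those 3, so their first parts were unusually large for this path. CL3154.Contig2 (2075 nt) had 2.88 FPKM in mycelium, 7.97 in primordium, 23.0 in young and 504 in mature fruit body. It was a net 63.2-fold higher (55.7 to 71.9), by 2.89-fold and then 21.9-fold, and its share of 0.24 placed it just inside the boundary of this path. The other compared contig of its cluster (571 nt), at 6.17, 30.2 and 615 FPKM in primordium, young and mature fruit body, had a share of 0.33 and lay on the path in both parts. CL1680.Contig2 (1547 nt) had 1.91, 3.01, 8.06 and 123 FPKM, a net 40.9-fold higher (32.3 to 52.6) with parts of 2.68-fold and 15.3-fold. Both had their highest level of the 4 libraries in mature fruit body.

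The named late decreases started from a high level in primordium, above the median of 20.9 FPKM of all 66. Unigene7995 (1719 nt) had 0.749 FPKM in mycelium, 188 in primordium, 89.0 in young and 1.33 in mature fruit body. Its net ratio was 141-fold lower (101 to 201), of which 2.11-fold came by the young stage and 66.7-fold afterwards (48.0 to 95.5). Unigene7995 was the only lower sequence of this path whose first part alone was called. CL5502.Contig2 (3331 nt) had 5.20, 514, 297 and 20.5 FPKM, a net 25.1-fold lower (23.6 to 26.7), by 1.73-fold and then 14.5-fold. Both were still abundant in young fruit body and then lost most of their level.

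**Figure D3:**
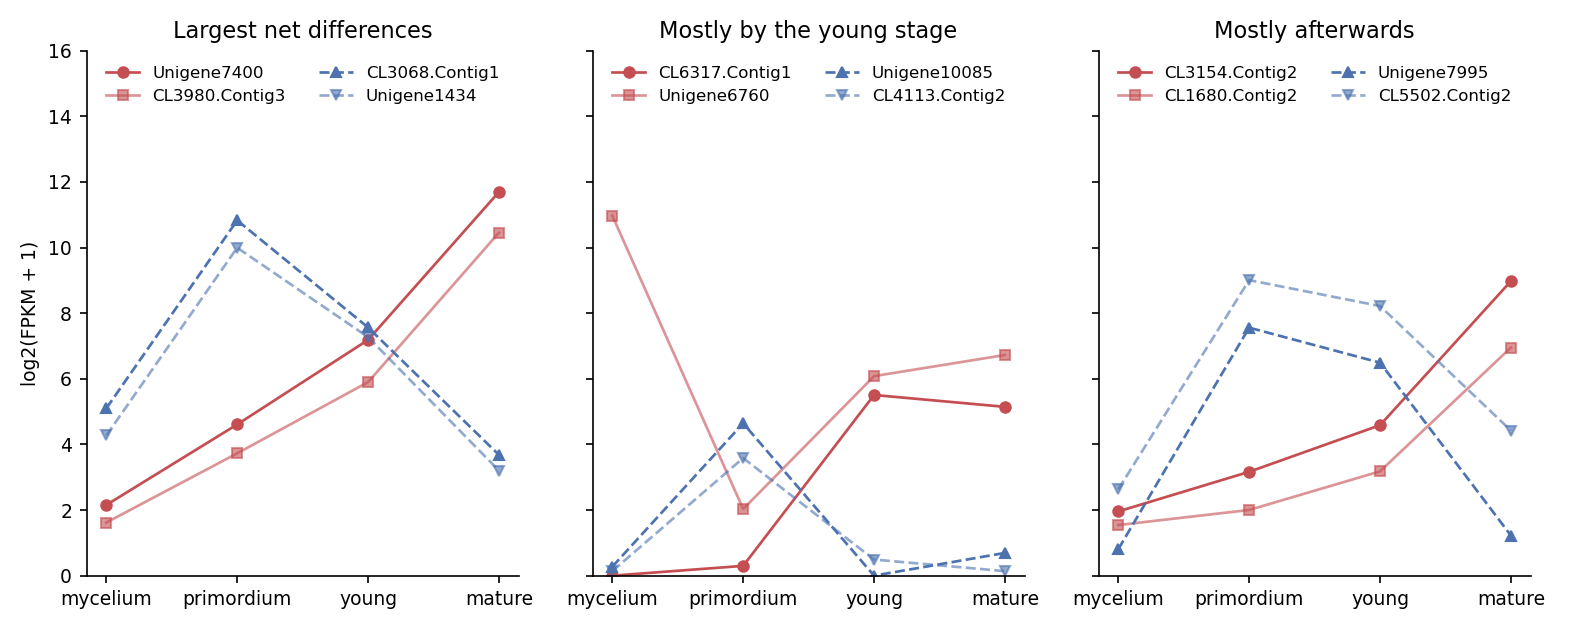
Levels of the 12 named sequences as log2(FPKM + 1) (vertical axis) in the 4 stages, 1 library each; red solid lines are higher and blue dashed lines lower in mature fruit body than in primordium. In the left panel all 4 lines change in both parts, whereas in the middle and right panels most of the change lies before or after the young stage.

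In the higher group the split by path differed between size classes of the net difference. The net difference is also the divisor of the share, so size and share are linked by construction, and their relation was not tested. Of the 353 higher sequences with a net difference from 1 to below 2, 67 (19.0%) took the path mostly by the young stage and 123 (34.8%) that mostly afterwards, with a median share of 0.39. Of the 133 from 2 to below 3, 11 (8.27%) and 63 (47.4%) did so, and of the 78 from 3 to below 4, 6 (7.69%) and 46 (59.0%), with median shares of 0.26 and 0.19. The 33 sequences with a difference of 4 or more did not continue this course, with 3 mostly by the young stage, 18 in both parts, 12 mostly afterwards and a median share of 0.29. These largest changes had medians of 2.16 FPKM in primordium, 6.97 in young and 71.2 in mature fruit body. In the lower group the median share stayed between 0.38 and 0.45 in the 4 size classes. The path in both parts was the most frequent in each of them, with 125 of 214, 33 of 49, 12 of 16 and 9 of 12 sequences.

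**Figure D4:**
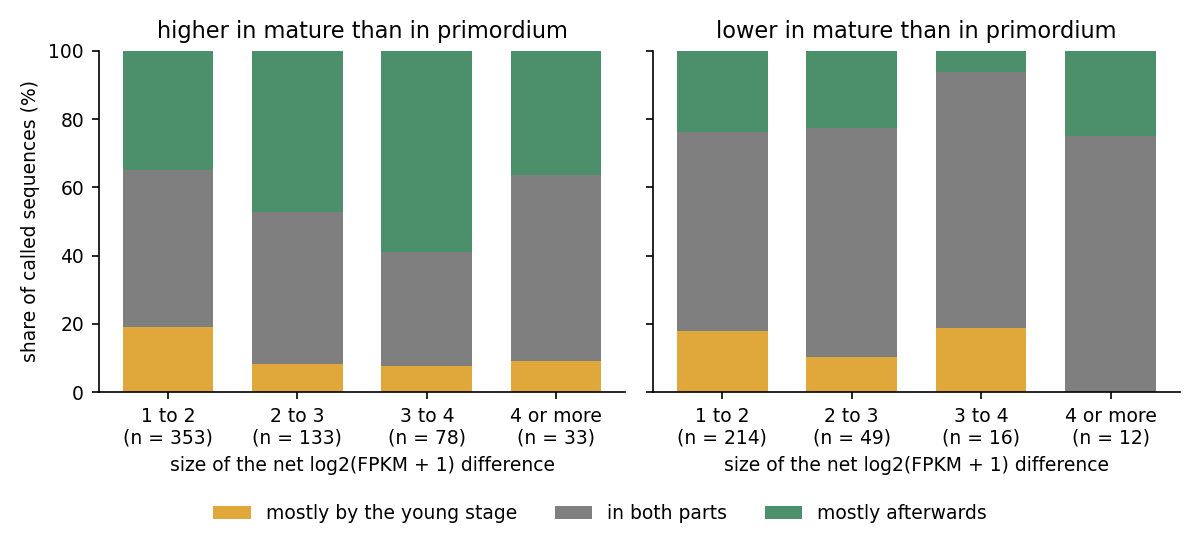
Share of called sequences (vertical axis, percent) on each path, by size class of the net log2(FPKM + 1) difference (horizontal axis), for higher (left) and lower (right) sequences. The share mostly afterwards among higher sequences is 34.8% in the smallest class and 59.0% from 3 to below 4.

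The share of fragments held by each group is given as a description, since the groups were chosen on the primordium and mature libraries and the direction between these is fixed by the rule. The higher sequences held 1.96% of the recovered fragments in primordium, 3.84% in young and 8.91% in mature fruit body (Wilson interval 8.90% to 8.93%). The lower sequences held 6.49%, 3.31% and 1.69% in the same order. No counting interval of these shares was wider than 0.014 percentage points on either side. Within the higher group, the sequences mostly by the young stage went from 0.226% to 0.868% and then 0.919%, those in both parts from 1.13% to 2.31% and 5.47%, and those mostly afterwards from 0.606% to 0.663% and 2.52%.

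Measured in FPKM rather than on the log scale, the gain came late and the loss early. The summed FPKM of the higher sequences increased by 42474, of which 27.0% was reached by the young stage and 73.0% came afterwards. The summed FPKM of the lower sequences decreased from 31056.4 in primordium to 15597.1 in young and 7181 in mature fruit body, and 64.7% of this loss had occurred by the young stage. Over single sequences the median share of the FPKM change was 0.20 for higher and 0.57 for lower sequences, against 0.33 and 0.42 on the log2 scale. Equal folds in both parts place more of a gain in the second and more of a loss in the first on a linear scale. Few sequences carried much of the change: the 10 with the largest gain made up 36.5% of the summed gain, and the 10 with the largest loss 49.6% of the summed loss.

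**Figure D5:**
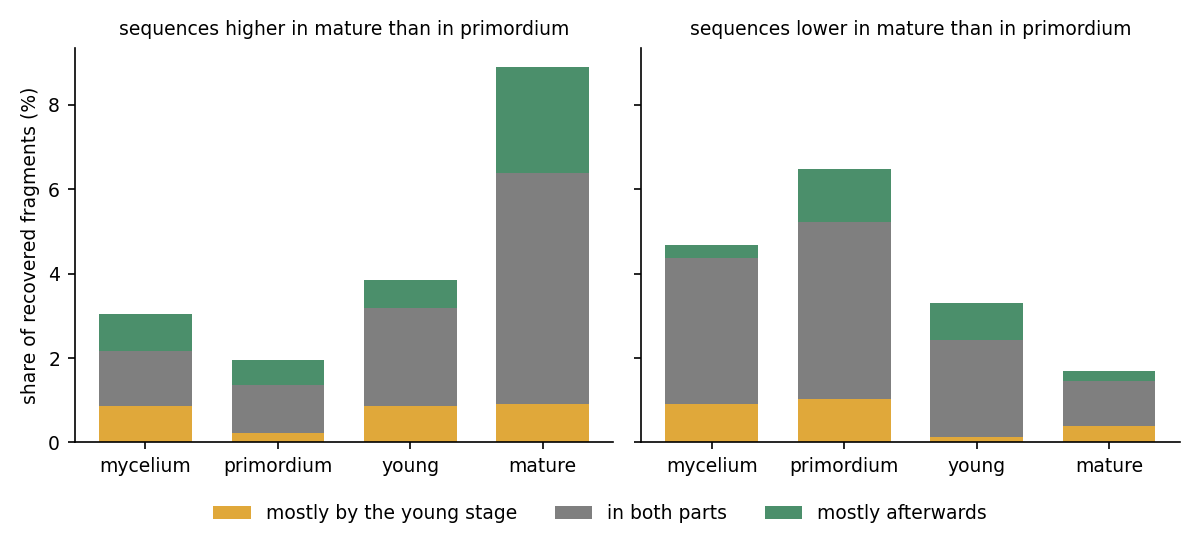
Share of the recovered fragments (vertical axis, percent) held by higher (left) and lower (right) sequences in each stage, stacked by path. From primordium to mature fruit body the share of the higher sequences goes from 1.96% to 8.91% and that of the lower ones from 6.49% to 1.69%.

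The mycelium library gave the level of the called sequences outside the mushroom. Their median there was 2.90 FPKM for the higher and 8.18 FPKM for the lower sequences. Only 222 higher and 140 lower sequences had at least 5 FPKM in both primordium and mature fruit body; the rest entered through the library where they were high, so their mycelial level is not read against that of the uncalled sequences. At least 5 FPKM was reached in mycelium by 241 of 597 higher sequences (40.4%) and by 173 of 291 lower ones (59.5%). By path, the higher sequences mostly afterwards had the lowest median in mycelium, 1.63 FPKM, with 91 of 244 under 1 FPKM and 10 without a fragment. Those mostly by the young stage had 4.86 FPKM, and those in both parts 4.26 FPKM. The sequences mostly afterwards also had the lowest median in primordium, 2.16 FPKM against 4.35 and 3.88 FPKM, so the order in mycelium is given as a description only.

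Relative to primordium and mature fruit body, mycelium stood below both in 315 higher sequences (52.8%), between them in 194 (32.5%) and above both in 88 (14.7%). For the lower sequences the numbers were 116 (39.9%), 78 (26.8%) and 97 (33.3%). For all sequences compared, 55.1% were below, 13.7% between and 31.2% above, and the interval between the levels is by construction wider for called sequences. The lower sequences mostly by the young stage had the highest mycelial median of the 6 groups, 19.3 FPKM, and 25 of these 46 were above both other levels in mycelium.

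The order of called shares by length changed with the call rule. From the shortest to the longest quartile the called share was 14.9%, 14.8%, 11.2% and 9.03%, and 9.73%, 12.6%, 10.1% and 8.42% when only calls with a counting interval beyond 2 were kept. Called shares by abundance are not read, because a sequence of low mean FPKM could pass the minimum only through the library where it was high. Sequences mostly by the young stage were the shortest, with median lengths of 1043 nt for higher and 941.5 nt for lower ones. The medians were 1351 and 1650 nt in both parts, and 1461 and 1482 nt mostly afterwards. All of these were under the 1687 nt of all sequences compared. Contigs of clusters were called in 14.1% of 3989 cases and single unigenes in 10.4% of 3130. The part of counting error, and of the division of fragments between contigs, in these shares was not tested.

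Few sequences peaked or dipped at the young stage, and their opposite parts offset each other in the net difference by construction. Of 6589 sequences with sufficient FPKM in both parts, 9 (0.137%) were higher and then lower, and 15 (0.228%) were lower and then higher. These parts share the young library, so an unusual value in it would move both. None of the 9 peaks was called in the net comparison, with medians of 4.58 FPKM in primordium, 10.4 in young and 3.85 in mature fruit body. Of the 15 dips, 9 were not called, 5 were lower and 1 was higher at maturity, where 12.5% of all sequences compared were called. The 5 had medians of 169 FPKM in primordium, 14.4 in young and 67.0 in mature fruit body, and so regained part of their level after the young stage.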

How the data were processed

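The authors deposited FPKM for each listed sequence in 4 libraries, per the file headers; the sources used here do not say how, or to which sequences, reads were aligned, counted and filtered. Each column was assigned by the short name in its sample's description. Differences were taken on log2(FPKM + 1), with a pseudocount of 1, which understates the change of low sequences; folds of named sequences are ratios of FPKM. Members, rules and named sequences were chosen with earlier results of these data known. Named were, at most 2 in each direction, the largest net differences among all called sequences, then among those mostly by the young stage and those mostly afterwards that were not yet named; gene lists could have no members.

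Whole fragments were recovered from the FPKM steps. Library ratios came from the commonest FPKM ratio, the denominator from the period that made lengths whole (coherence 0.825, against 0.00521 at the next multiple), and each length was the smallest of at least 200 nt that gave whole fragments in all 4 libraries within 5.1e-05 FPKM. All 50567 sequences above 0 had such a length; lengths and fragments that share a common factor are understated, with folds unaffected but intervals too wide. Fold intervals are exact conditional binomial (Clopper-Pearson) ones. Recovery, calls and paths were also run on simulated data. The outcome of that run is not given, so nothing is inferred from it about the accuracy of the calls or paths. Python 3.11.15, numpy 2.4.6, pandas 2.3.3, scipy 1.17.1 and matplotlib 3.10.9 were used.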

Additional observations from a re-analysis of the deposited data

How the results depend on the processing

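Counts and median shares were recalculated under 13 alternatives, 2 of them (the share of the FPKM change and the counting intervals of both parts) chosen after seeing the data. Of 148 recalculated values, 95 stayed within 1.5 times the reported count or within the binomial 95% interval of the median share, and higher calls outnumbered lower ones throughout, from 59.2% under upper-quartile scaling to 76.0% at a difference of at least 2. Counts are given as higher and lower, and paths in the order by the young stage and both parts. A pseudocount of 5 gave 382 and 159 calls, paths of 42 and 153 higher, 23 and 105 lower, a path afterwards of 31 lower, a median share of 0.26 for higher, 3 peaks, 9 dips and 136 clusters called in 1 direction. A difference of at least 2 gave 244 and 77, paths of 20 and 103, 8 and 54, afterwards 121 and 15, a share of 0.25, 0 peaks, 5 dips and 78 clusters. A minimum of 20 FPKM gave 245 and 132, paths of 39 and 121, 17 and 81, afterwards 85 and 34, 4 peaks, 8 dips, 53 clusters called in 1 direction and 0 in both. No minimum gave 1212 and 568, paths of 174 and 525, 112 and 322, afterwards 513 and 134, 43 peaks, 42 dips, 601 clusters and 9. A pseudocount of 0.1 gave 16 peaks. The threshold and the minimums admit fewer or more sequences, and a pseudocount also changes each difference and share. Path boundaries of 0.33 and 0.67 put 175 higher sequences in both parts. The share of the FPKM change gave medians of 0.20 and 0.57, 81 lower sequences by the young stage and 39 afterwards. Leaving only calls with a counting interval beyond 2 put 44 lower sequences afterwards. The 12 named sequences kept the direction of the net difference and of both parts in all 180 recalculated values, though they were chosen for large differences. No paired analysis was possible because there was 1 library a stage.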

Other observations

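Called contigs of 1 cluster mostly shared their direction. In 1142 clusters at least 2 contigs were compared, and 138 of these had only higher calls, 75 only lower and 1 both. In 110 of these clusters with a call, at least 1 compared contig was not called. Only the 127 clusters with at least 2 called contigs could show both directions, and 94 of them were all higher, 32 all lower and 1 both. In these 127 clusters, the called contigs followed the same path in 104 and differing paths in 23. No cluster held both a contig mostly by the young stage and one mostly afterwards. Contigs of a cluster may share sequence and fragments, so their values are not separate measurements. The cluster called in both directions was that of CL6317.Contig1, whose other compared contig (1029 nt) had 169 FPKM in mycelium, 13.0 in primordium, 1.77 in young and 0.805 in mature fruit body. Its decrease was made mostly by the young stage, like the increase of CL6317.Contig1.

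Some other clusters held called and uncalled contigs side by side, and in others every compared contig was called. The cluster with the most higher contigs had all 5 of its compared contigs higher, each of them mostly afterwards, with 8.09 to 27.0 FPKM in mature fruit body. The cluster with the most lower contigs had 4 lower ones among 10 compared. Its uncalled contigs also had negative net differences, from -0.31 to -0.92, short of the threshold. The other compared contig of the cluster of CL3980.Contig3 (2003 nt) stood at 5.77 FPKM in primordium, 6.87 in young and 5.70 in mature fruit body, where CL3980.Contig3 went from 12.3 to 1404. The other contig of the cluster of CL1680.Contig2 (1497 nt) had nearly the same values, at 3.73, 8.46 and 124 FPKM. These clusters were picked after their values were seen or because they hold a named sequence.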
